A study of Mus musculus with 16 samples.

Results

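Within the activated CD8 T cells of a tumor-draining lymph node, a small set of cells was defined by transcripts that are better known from T cells held in check than from effector cells. The set, called gated cells here, comprised every cell of the lymph node gene table with 1 or more unique molecular identifier (UMI, a tag that marks 1 captured transcript) for at least 2 of the 6 genes Wnt10a, Nrn1, Cd200, Izumo1r, Ctla4 and Lag3. This held for 160 of 3266 cells (4.90%, exact 95% interval 4.18 to 5.70). They were compared with the 2814 cells in which none of the 6 was seen, called cells with none, while 292 cells with exactly 1 of the genes were kept apart. All of these cells came from 16-week-old C57BL/6 mice with melanoma-associated vitiligo, a loss of skin pigment that accompanies immunity to melanoma, 45 days after the tumor had been removed by surgery. Cells had been sorted as CD8+CD44+ T cells, so both sides of every comparison share the strain, the disease, the sort and the library. The gene table is 1 library whose 4 lanes were pooled, and the sources used here do not give the number of mice behind it. Cells of 1 library are not replicates, so no test was made, and every interval covers counting error only.

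Anergy is a state in which a T cell that met its antigen without sufficient co-stimulation stays alive but responds weakly. Izumo1r encodes folate receptor 4 and Nrn1 encodes neuritin, both known from anergic and regulatory CD4 T cells in mice. Ctla4 and Lag3 encode inhibitory receptors, Cd200 encodes a ligand that restrains myeloid cells, and Wnt10a encodes a secreted ligand of the Wnt pathway. T cells kept under repeated antigen stimulation, as in tumors and chronic infection, also raise inhibitory receptors, together with transcription factors such as Tox.

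The gated cells were somewhat shallower than the comparison cells. They had a median of 3791.5 UMIs per cell and 697675 UMIs in all, against a median of 4480 and 12607637 UMIs in cells with none. Ribosomal protein genes took a median of 30.0% of the UMIs in gated cells, against 40.0% in cells with none. The remaining genes therefore shared a larger part of the total in gated cells, and the median log2 ratio over the 8901 genes compared was 0.24, which is the level to read the ratios below against. The lymph node gene table and the skin receptor table had 12 cell barcodes in common.

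The 6 genes chose the cells, so their levels are a description. Levels are given as counts per 1000000 UMIs (CPM) of the counts summed over a class of cells. Izumo1r was the most frequent, in 88 of the gated cells (55.0%) at 281 CPM. Ctla4 was seen in 84 gated cells at 188 CPM, Cd200 in 65 at 136 CPM, Wnt10a in 64 at 139 CPM, Lag3 in 58 at 156 CPM and Nrn1 in 55 at 171 CPM. Of the gated cells, 97 had exactly 2 of the genes, 37 had 3, 21 had 4, 5 had 5, and 0 had all 6. Izumo1r with Ctla4 was the most frequent pair, in 46 cells, followed by Wnt10a with Izumo1r in 31. Cells just inside the limit, with 2 genes, had a median of 3239 UMIs, and cells just outside it, with 1 gene, had a median of 3917.5 UMIs.

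How far the 6 transcripts go together was described by asking, for each, how often it was seen when the other 5 were or were not, after every cell had been thinned to 1500 UMIs so that depth was equal. Each of the 6 was seen more often the more of the others were present. Cd200 was detected in 0.526% (0.295 to 0.867) of 2850 cells with none of the other 5, in 5.95% (3.00 to 10.4) of 185 cells with 1 of them and in 27.3% (16.1 to 41.0) of 55 cells with 2 or more. Ctla4 was detected in 1.84%, 12.3% and 27.7% of the same classes, and Izumo1r in 1.84%, 13.4% and 24.4%. The order was the same for Wnt10a (0.735%, 9.19% and 18.4%), Nrn1 (0.561%, 6.49% and 18.5%) and Lag3 (1.08%, 5.95% and 19.6%). At deposited depth, where the class with 2 or more of the others had fewer UMIs per cell than the class with none, Nrn1 stood at 136 CPM in the 141 cells with 2 or more of the other 5, against 2.59 CPM in the 2840 cells with none of them, a log2 ratio of 5.71 (5.12 to 6.34). For the other 5 genes left out in turn this ratio lay between 3.92 for Ctla4 and 5.62 for Cd200. The 6 genes were chosen with earlier results of these data known, so that they go together here is a description and no independent support.

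**Figure D1:**
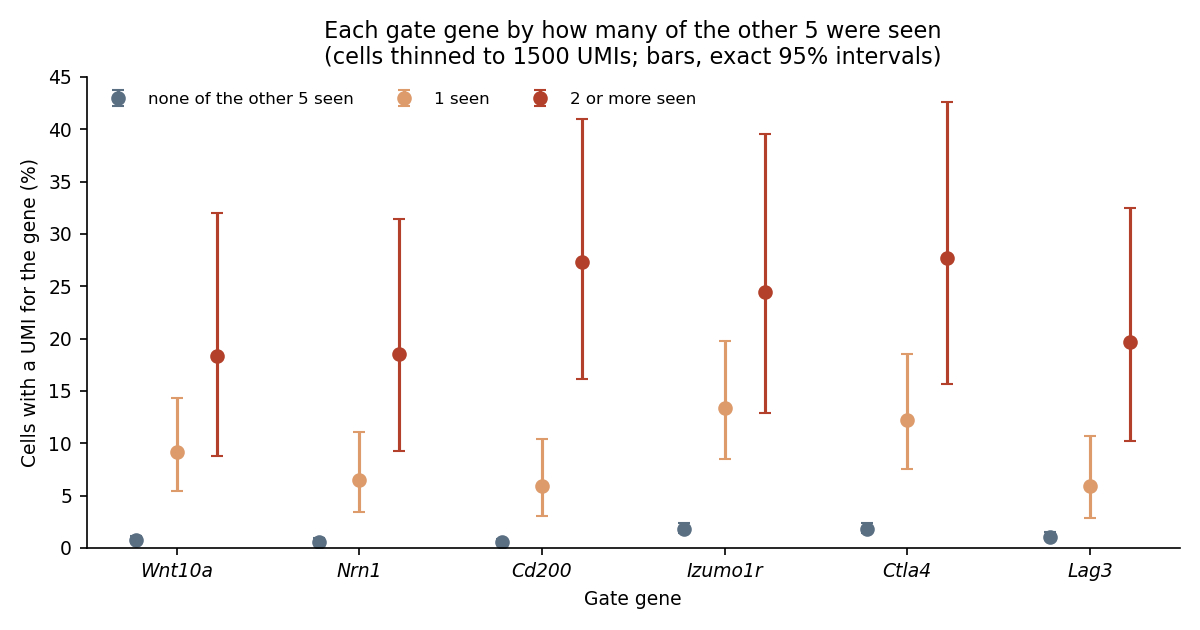
Share of cells with a UMI for each gate gene (vertical axis, percent), by how many of the other 5 gate genes were seen in the cell (none, 1, or 2 or more), with every cell thinned to 1500 UMIs. Points are shares and bars are exact 95% binomial intervals; all 6 genes are ordered from none to 2 or more, with Cd200 at 0.526%, 5.95% and 27.3%. The 6 genes were chosen with earlier results of these data known.

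The share of gated cells depends on depth. Thinned to 1000 UMIs, 42 of 3181 cells (1.32%) passed; at 1500 UMIs 66 of 3090 (2.14%) passed and at 3000 UMIs 65 of 2533 (2.57%). Cells with none will therefore include cells whose gate transcripts were not captured.

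Izumo1r lies on mouse chromosome 9 from 14903949 down to 14885814 on the minus strand, and Nrn1 on chromosome 13 from 36735131 down to 36725361 on the minus strand (build mm10, GENCODE M21). Pdcd1, which encodes the inhibitory receptor PD-1 and is described below, lies on chromosome 1 from 94052553 down to 94038305 on the minus strand. The promoters of these genes are shown because NFAT, a factor driven by calcium signals from the T cell receptor, acts with AP-1 in full activation and without it in anergy. The sequences are from RefSeq on GRCm38.p6, run from 250 bases before to 50 bases after the RefSeq start of transcription on the strand of the gene, and capitals mark the letters GGAAA of the NFAT core on either strand. Izumo1r is shown for chr9:14903718-14904017 and Pdcd1 for chr1:94052504-94052803, both on the minus strand. The RefSeq start of Izumo1r lies inside the GENCODE gene, downstream of the end given above, so its window covers more of that gene than the window of Pdcd1 does of its own.
Izumo1r promoter: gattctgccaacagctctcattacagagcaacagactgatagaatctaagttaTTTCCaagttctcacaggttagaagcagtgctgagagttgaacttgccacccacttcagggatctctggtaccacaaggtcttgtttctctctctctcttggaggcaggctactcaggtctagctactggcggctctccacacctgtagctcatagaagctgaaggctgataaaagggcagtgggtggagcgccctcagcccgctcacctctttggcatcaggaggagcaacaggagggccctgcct
Pdcd1 promoter: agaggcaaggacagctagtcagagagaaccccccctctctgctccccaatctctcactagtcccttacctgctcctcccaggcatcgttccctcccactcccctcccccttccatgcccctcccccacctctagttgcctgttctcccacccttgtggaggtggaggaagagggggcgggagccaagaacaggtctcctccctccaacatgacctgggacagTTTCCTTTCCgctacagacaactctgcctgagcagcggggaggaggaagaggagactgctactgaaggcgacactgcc
The Izumo1r window held 1 such match and the Pdcd1 window 2, side by side. The letters GGAAA occur on either strand in 61.3% of the 32851 promoter windows of this length, so a match sets neither gene apart. Neither window held TGANTCA, the AP-1 core, which is in 7.81% of promoters, or AAAGGTCA, the NR4A element, which is in 1.51%.

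Across the genes outside the gate, the gated cells had more inhibitory and co-stimulatory receptor transcripts and less of the virtual memory and natural killer receptor transcripts. The highest list median, 3.08, was that of genes better known from CD4 and regulatory T cells. Some of these are also co-stimulatory receptors, and they are given below with the lineage markers. A gene was counted as higher or lower when the ratio of CPM, each with 1 CPM added, was at least 2-fold and the gene had at least 50 UMIs over both sides. By this rule 626 of 8901 genes (7.03%) were higher in gated cells and 323 (3.63%) were lower. The 50 UMIs are summed over both sides, so a gene with fewer in cells with none entered only through its UMIs in gated cells. Among such genes were Gpm6b, Nrp1, Tiam1, Tnfrsf4, Capn3, Iigp1, Mdfic, Pdcd1, Ccr8 and Irf4. The floor thus favors higher genes in these counts, among the 12 highest and in the list counts and medians. The counting interval of the ratio, which is computed without the added CPM, lay wholly above equality for 603 of the 626 and wholly below it for 143 of the 323. The lower genes rest on few counts, with a median of 2 UMIs in gated cells and 10 or more UMIs for 36 of them. When libraries were scaled by the median of ratios instead of the total, which takes out a shift of 0.31, 293 genes were higher and 517 lower, so the balance of the 2 directions depends on the scaling.

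**Figure D2:**
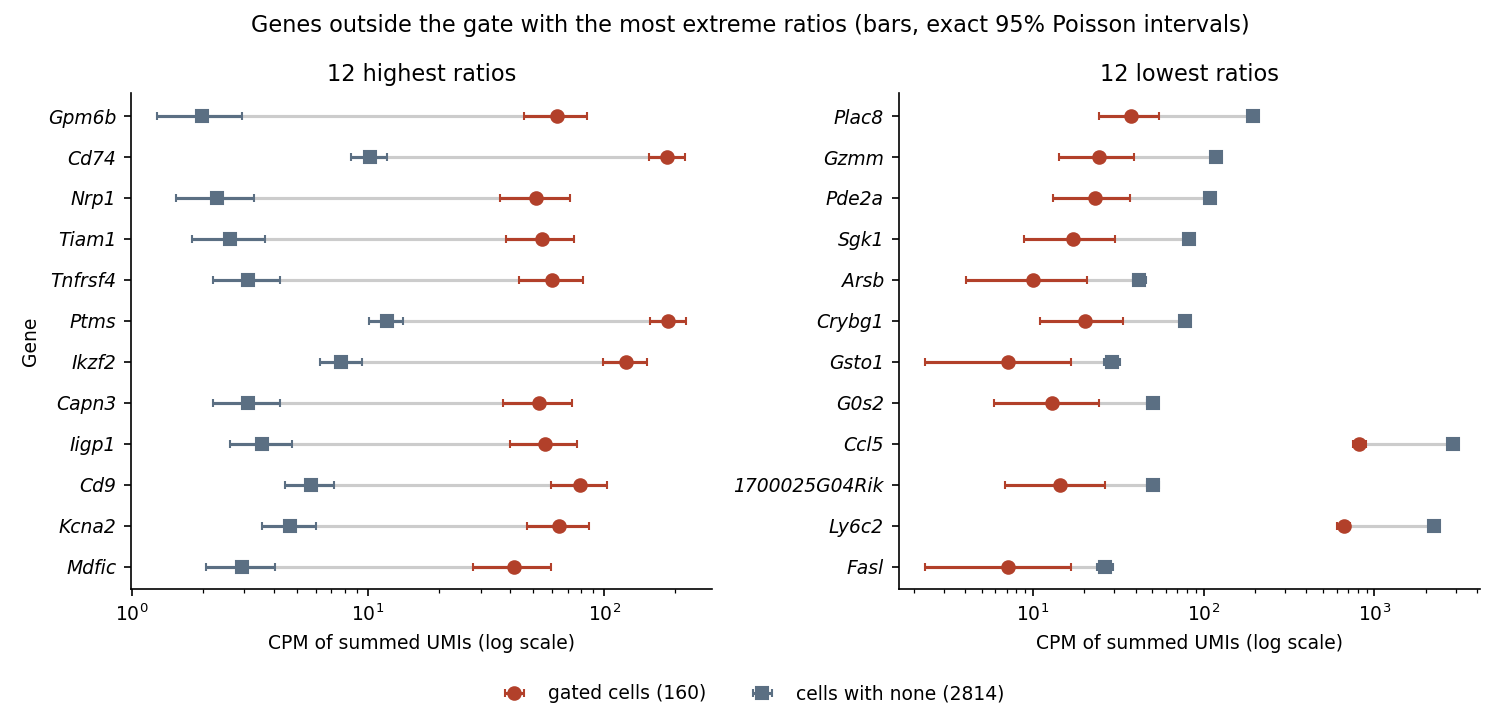
Level in CPM of summed UMIs (horizontal axis, log scale) of the 12 genes with the highest ratios (left) and the 12 with the lowest (right), in 160 gated cells (circles) and 2814 cells with none (squares). Bars are exact 95% Poisson intervals, and Gpm6b stands at 63.1 against 1.98 CPM. The 24 genes were picked for their extreme ratios, so the distance between the intervals of the 2 classes is no separate result.

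Inhibitory receptors outside the gate, listed with PD-1 ligands and an ectoenzyme, were higher as a list. Of 11 members compared, 7 were at least 2-fold higher and 1 was lower, against 7.03% and 3.63% of all genes compared. The median log2 ratio, which is that of Entpd1, was 1.30 against 0.24 over all genes. PD-1, the product of Pdcd1, dampens signals from the T cell receptor and CD28. Pdcd1 had 50.2 CPM in gated cells, against 2.06 CPM in cells with none (log2 ratio 4.06, interval 3.83 to 5.40), and a UMI in 9.38% of gated cells against 0.853%. Tigit, a receptor that competes with the co-stimulatory Cd226 for the same ligands, had 30.1 against 5.79 CPM (2.20, 1.60 to 3.09), and Cd226 itself had 129 against 52.5 CPM (1.28, 0.96 to 1.62). Cd96 (1.5, 1.26 to 1.75), the PD-1 ligands Pdcd1lg2 (1.76, 0.94 to 2.90) and Cd274 (1.42, 0.69 to 2.27), the ectoenzyme Entpd1 (1.30, 0.13 to 2.69) and Btla (1.19, 0.64 to 1.77) were the others past 2-fold. Vsir was at 118 CPM in gated cells and 98.6 CPM in cells with none (0.25, -0.09 to 0.58). The collagen receptor Lair1 was the lower member, with 5 UMIs in gated cells (-1.15, -2.89 to -0.01). The list's median was 0.21 in the 21 cells that carried both Ctla4 and Lag3 and 0.96 without the 28 gated cells that had a Cd40lg or Ccr8 UMI.

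Co-stimulatory receptors were higher beside them. Of 15 members compared, 7 were at least 2-fold higher and 0 lower, with a median of 0.94. Tnfrsf4, the receptor OX40, which is induced on T cells after antigen contact, had 60.2 CPM in gated cells, against 3.09 CPM in cells with none (3.90, 3.62 to 4.95). Tnfrsf9, the receptor 4-1BB, had 61.6 against 6.42 CPM (3.08, 2.69 to 3.81). Slamf6, a homophilic adhesion receptor often used to mark stem-like exhausted cells, had 245 against 34.6 CPM (2.79, 2.56 to 3.08), with a UMI in 55.6% of gated cells against 12.8%. Icos, a relative of CD28, had 143 against 26.1 CPM (2.41, 2.12 to 2.78), and Slamf1 (2.13), Cd226 and Cd28 (1.16, 0.93 to 1.39) were also past 2-fold. Tnfsf14 was the member below 0, at -0.01 (-1.35 to 1.08).

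**Figure D3:**
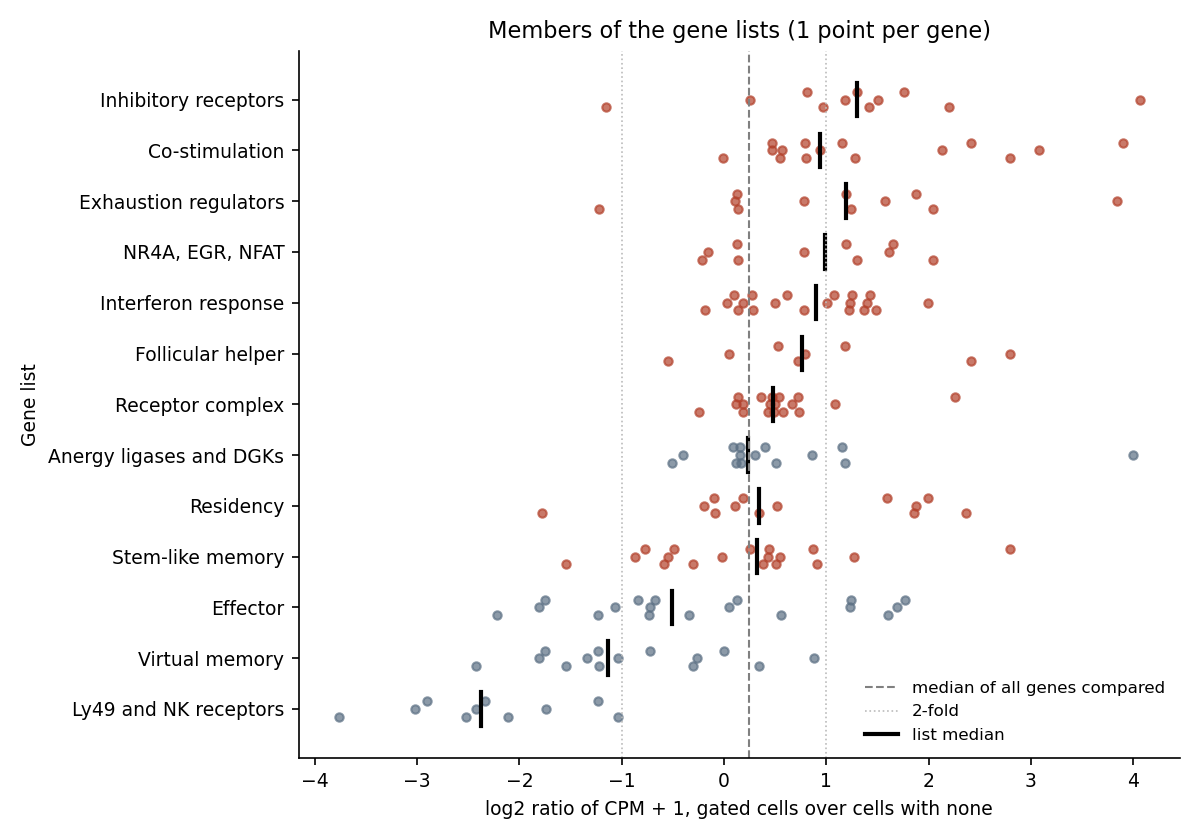
Log2 ratio of CPM + 1 in gated cells over cells with none (horizontal axis) for the members of 13 gene lists, 1 point per gene with at least 50 UMIs. Black bars are list medians, the dashed line is the median of all genes compared (0.24) and dotted lines mark 2-fold; the median of the inhibitory receptor list is 1.30 and that of Ly49 and NK receptors is -2.38. The inhibitory receptor list also holds PD-1 ligands and an ectoenzyme. The list of genes better known from CD4 and regulatory T cells, with a median of 3.08, is not shown.

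Transcription factors linked to chronic stimulation were higher in part. Of 11 regulators of exhaustion compared, 6 were at least 2-fold higher and 1 lower (median 1.19). Ikzf2, which encodes Helios, a factor known from regulatory T cells, had 123 CPM in gated cells, against 7.69 CPM in cells with none (3.84, 3.57 to 4.44). Tox, a driver of the exhausted state, had 78.8 against 25.9 CPM (1.57, 1.17 to 2.02), and Irf4 (2.04, 1.28 to 3.28), Bhlhe40 (1.87), Id2 (1.24) and Batf (1.19) were also past 2-fold. Eomes, a T-box factor of memory and cytotoxic cells, was lower, at 37.3 against 88.3 CPM (-1.22, -1.86 to -0.69). Without the gated and comparison cells that had a Cd40lg or Ccr8 UMI the median of this list was 0.65, and without barcodes of 2 or more TRB sequences or no receptor contig it was 0.75.

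Early targets of the T cell receptor gave a mixed picture. Of 10 NR4A, EGR and NFAT genes compared, 5 were at least 2-fold higher and 0 lower (median 0.98). They were Irf4, Nfat5 (1.65, 1.16 to 2.23), Egr1 (1.62, 1.0 to 2.36), Nr4a1 (1.30, with 7 UMIs in gated cells) and Batf, whereas Nr4a3 and Nfatc2 stood below 0 at -0.16 and -0.22. Without the cells that had a Cd40lg or Ccr8 UMI this median was 0.46. Of 15 further genes of signal strength, 3 were higher and 2 lower (median 0.55). The higher ones were Tnfrsf9, the EGR co-repressor Nab2, at 41.6 against 8.88 CPM (2.11, 1.58 to 2.83), and Rgs1 (1.59). The lower ones were Myc, a driver of growth, at 50.2 against 123 CPM (-1.27, -1.82 to -0.81), and the phosphatase Dusp5 (-1.13, with 6 UMIs in gated cells). Cd83, Il2ra and Maf, chosen after their values were seen, had under 50 UMIs over both sides and entered no count: Cd83 had 43.0 CPM in gated cells and 0.635 CPM in cells with none, Il2ra 22.9 and 1.74 CPM, and Maf 20.1 and 1.51 CPM.

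The list of genes tied to anergy did not stand apart from other genes by its median. Of 14 ubiquitin ligases, diacylglycerol kinases and further anergy genes compared, 3 were at least 2-fold higher and 0 lower. Over all genes compared, 7.03% were higher and 3.63% lower. The list median of 0.23 was next to the 0.24 of all genes. Nrp1, a co-receptor known from regulatory T cells, had 51.6 against 2.30 CPM (3.99, 3.74 to 5.25). Dgkz, a kinase that removes diacylglycerol and so limits Ras signals, had 130 against 56.8 CPM (1.19, 0.87 to 1.52), and Nt5e, the ectoenzyme CD73, had 27.2 against 11.7 CPM (1.16, 0.45 to 1.92). The ligase genes Cblb (0.50, 0.06 to 0.93) and Itch (0.30, -0.30 to 0.86) and the phosphatase gene Ptpn6 (-0.51, -0.79 to -0.25) did not reach 2-fold. Rnf128, Egr2 and Egr3 were not among the genes of the table. With the gate read at 1500 UMIs Dgkz stood at 0.36, with a UMI in 12.1% of gated cells against 8.92%, and under median-of-ratios scaling 1 of the 14 members remained past 2-fold. The 6 gate genes chose the cells and cannot bear on the name anergy-like, and outside the gate the anergy list gave a median next to that of all genes, so the cells are called by their rule here.

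Genes induced by interferon were higher in 10 of 20 members and at least 2-fold lower in 0, with a median of 0.89. Ifi27l2a, an interferon-induced gene, had 1516 CPM in gated cells, against 380 CPM in cells with none (1.99, 1.90 to 2.09), and a UMI in 88.8% of gated cells against 54.9%. Ifit1 (1.48, 1.03 to 1.99), Isg20 (1.40), Isg15 (1.25) and Ly6a (1.22) were also past 2-fold, while Bst2 stood at -0.19 (-0.49 to 0.09). Iigp1, an interferon-induced GTPase and 1 of the 12 genes with the highest ratios, had 55.9 against 3.57 CPM (3.64, 3.31 to 4.62). With the gate read at 1500 UMIs it stood at 1.78, with a UMI in 3.03% of gated cells against 0.705%. Under median-of-ratios scaling 5 of the 20 members of the list were past 2-fold.

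Adhesion and TGF-β receptor genes were higher as single members, while the medians of the residency and TGF-β lists, 0.34 and 0.40, lay nearer the 0.24 of all genes. Itgae, the CD103 integrin chain that binds E-cadherin on epithelium, had 188 against 35.7 CPM (2.36, 2.10 to 2.68), and after thinning a UMI in 25.2% of gated cells against 4.91%. Its ratio was 1.68 with every cell weighted equally and 1.94 with comparison cells weighted by depth. Of 13 residency genes 5 were higher and 1 lower (median 0.34), the higher ones being Itgae, the skin-homing receptor Ccr10 (1.99, 1.38 to 2.84), Bhlhe40, Qpct (1.85) and Rgs1, and the lower one Itga1 with 1 UMI in gated cells (-1.78, -7.68 to 0.15). Runx3, a factor of tissue residency, was at 94.6 against 109 CPM (-0.20). Tgfbr3, a co-receptor for TGF-β, had 35.8 against 5.08 CPM (2.60, 2.09 to 3.51), and with Itgav (1.38) and Tgfbr1 (1.32) made up the 3 of 12 TGF-β genes past 2-fold. Among recirculation genes, Itgb1 (1.30) and Samhd1 (1.33) were higher and Gpr183, an oxysterol receptor that guides cells within lymphoid tissue, was lower (-1.46, -2.08 to -0.94). Klf2, which sustains exit from lymph nodes, was at 401 CPM in gated cells and 733 CPM in cells with none (-0.87, -1.05 to -0.70).

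The Wnt and stem-like genes did not stand apart as groups. Of 14 Wnt and TCF genes compared, only Wls, the carrier that releases Wnt proteins from the cell, was past 2-fold, at 45.9 against 10.9 CPM (1.97, 1.46 to 2.63). Tcf7 and Lef1, the nuclear factors of the pathway, were at 0.43 (0.24 to 0.61) and -0.02 (-0.27 to 0.23). Of 18 stem-like memory genes, Slamf6 and Dapl1 (361 against 150 CPM, 1.27, 1.08 to 1.46) were higher and Bcl2 was lower (median 0.32). Bcl2, which protects resting T cells from death, had 102 against 299 CPM (-1.54, -1.91 to -1.22), with a UMI in 25.6% of gated cells against 63.0%.

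The rest of the 12 highest genes had varied roles. Gpm6b, a membrane protein of the proteolipid family, had the highest ratio by the rule, at 63.1 against 1.98 CPM (4.42, 4.25 to 5.76), with a UMI in 21.9% of gated cells against 0.888%. Tiam1, an activator of the GTPase Rac, had 54.5 against 2.62 CPM (3.94). Ptms, which encodes parathymosin, had 186 against 12 CPM (3.85) and was seen in 45.0% of gated cells against 4.69%. The protease gene Capn3 (3.72), the tetraspanin gene Cd9 (3.57), the potassium channel gene Kcna2 (3.53) and Mdfic (3.44) completed the list. Cd74, the invariant chain of MHC class II, had 185 against 10.2 CPM (4.06, 3.82 to 4.55), and a UMI in 31.3% of gated cells against 2.91%. Its ratio was 3.22 with every cell weighted equally and 3.59 with comparison cells weighted by depth.

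Several genes of cytotoxic memory cells were lower. Ccl5, a chemokine stored by memory CD8 T cells, had 817 CPM in gated cells, against 2870 CPM in cells with none (-1.81, -1.93 to -1.69), and a UMI in 52.5% of gated cells against 84.4%. Ly6c2, a surface protein of circulating memory cells, had 661 against 2222 CPM (-1.75, -1.89 to -1.62). Plac8 had the lowest ratio by the rule, at 37.3 against 194 CPM (-2.35, -3.00 to -1.83), and the granzyme gene Gzmm had 24.4 against 117 CPM (-2.22, -3.05 to -1.59). The death ligand gene Fasl (-1.75, with 5 UMIs in gated cells), the phosphodiesterase gene Pde2a (-2.20), the kinase gene Sgk1 (-2.18), Arsb (-1.96), Crybg1 (-1.91), G0s2 (-1.88), Gsto1 (-1.88) and 1700025G04Rik (-1.75) were the remaining genes of the 12 lowest. Ccl5 spans bases 83525778 to 83530518 of chromosome 11 (minus strand) and Ly6c2 bases 75108158 to 75111970 of chromosome 15 (minus strand), both on mm10. Ly6c2 has close relatives in its gene cluster, so its reads may be shared with them.

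The effector list held members on both sides. Of 18 members compared, 5 were higher and 5 lower, with a median of -0.51. The higher ones were the granzyme gene Gzmk (1.77, 1.05 to 2.72), the cytokine genes Ifng, at 27.2 against 7.77 CPM (1.69, 1.02 to 2.53), and Tnf (1.61, 1.01 to 2.31), with Id2 and S100a4 (1.23). The lower ones were Gzmm, Ccl5, Fasl, Ccl4 (-1.24, -2.16 to -0.52) and Gzmb (-1.07, -2.81 to 0.08, with 5 UMIs in gated cells). The virtual memory list, genes of memory-like CD8 T cells that arise without foreign antigen, had 0 of 14 members higher and 8 lower, with a median of -1.13; besides Ccl5, Ly6c2, Bcl2 and Eomes these were Klrc1, Klrk1, Klrd1 and Il18rap (-1.34). Within the same list Cd44 stood at 128 against 68.7 CPM (0.88, 0.56 to 1.21).

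Ly49 and other natural killer receptors were the lowest list. All 10 members compared were at least 2-fold lower in gated cells by the fitted ratio, with a median of -2.38, and -1.48 when the 3 members with 0 UMIs in gated cells were set at the limit given by 3 counts, 4.30 CPM. Klra7, which encodes an inhibitory Ly49 receptor for MHC class I, had 1 UMI in gated cells and 404 UMIs in cells with none (log2 ratio -3.76, interval -9.79 to -2.0). Klra1 had 0 UMIs in gated cells and was at least 1.66-fold lower, while the limits for Klrc2 and Klra9 did not exclude a ratio near equality. Klrd1, the CD94 chain, had 116 against 240 CPM (-1.04, -1.38 to -0.73) and Klrk1, the activating receptor NKG2D, 15.8 against 38.3 CPM (-1.23, -2.29 to -0.43). Any Klra gene or Klre1 was seen in 5 of 160 gated cells (3.13%, 1.02 to 7.14), against 612 of 2814 cells with none (21.7%, 20.2 to 23.3), and after thinning in 0.662% against 10.9%. The Klra genes are near-identical copies, so the division of reads among them is uncertain.

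The lineage of the gated cells was checked against markers. Cd8a or Cd8b1 was seen in 156 of 160 gated cells (97.5%), against 98.4% of cells with none. The 2 chains differed, since Cd8a had 1086 against 513 CPM (1.08, 0.97 to 1.19) and Cd8b1 had 1496 against 1378 CPM (0.12, 0.03 to 0.21), where the ratio of Cd8b1 turned to -0.19 under median-of-ratios scaling. Trat1, an adaptor that associates with the T cell receptor, had 60.2 against 11.8 CPM (2.26), and Cd3e 1303 against 874 CPM (0.58). Genes better known from CD4 and regulatory T cells were higher in 6 of 7 members compared (median 3.08), namely Nrp1, Tnfrsf4, Ikzf2, Tnfrsf9, Cd40lg (2.55, 2.05 to 3.40) and Ccr8 (2.48, 1.89 to 3.57), and summed to 502 against 92.8 CPM. Cd4 and Foxp3 themselves were not among the genes of the table. With only the 156 gated cells and 2769 cells with none that had a Cd8a or Cd8b1 UMI this median was 3.03. That setting left out so few cells that the median could hardly change, so it does not bear on lineage. Over the 20 alternative settings the median of this list lay between 1.01, in the 21 cells with both Ctla4 and Lag3, and 3.65, without barcodes of 2 or more TRB sequences or no receptor contig.

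Among markers of other cell types, Cd74, Rora and Krt10 were past 2-fold higher and Cd163l1 was among the lower ones. Of 4 B cell markers compared 1 was higher, and the list summed to 444 CPM in gated cells and 216 CPM in cells with none. Cd74 gave 129 UMIs in gated cells and Ighm 146, against 128 and 2141 UMIs in cells with none. Ighm, an immunoglobulin gene of B cells, was seen in 42.5% of gated cells against 48.5%, and Cd79b, a chain of the B cell receptor complex, stood at 35.8 against 24.7 CPM (0.52, -0.12 to 1.12). Of 5 myeloid and dendritic markers 0 were higher and 1 lower (560 against 473 CPM), and of 6 NK and innate lymphoid markers 1 was higher and 2 lower. The higher one was Rora, a nuclear receptor of innate lymphoid cells, at 15.8 against 6.27 CPM (1.21, 0.27 to 2.25), and the lower ones were Eomes and Tyrobp. Of the γδ T cell markers, Cd163l1 was lower, at 5.73 against 26.7 CPM (-2.04, -4.10 to -0.85), and Trgv2 was at 8.60 against 8.88 CPM. Of 2 stromal, keratinocyte and erythroid markers compared 1 was higher, the keratin gene Krt10 at 21.5 against 10.1 CPM (1.02, 0.21 to 1.87), and the list summed to 60.2 against 32.6 CPM. Under median-of-ratios scaling neither Rora nor Krt10 was past 2-fold, and with the gate read at 1500 UMIs Rora was not. The part of other cells in the results was not tested. Cell cycle (median 0.09, 1 of 11 past 2-fold), glycolysis (0.07, 0 of 13), dissociation stress (0.12) and cytokine receptor genes (-0.07) lay below the median of all genes.

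For all 24 genes with the highest and lowest ratios, the level in cells with 1 gate gene lay between those in cells with none and in cells with exactly 2. These genes were picked for their ratio of gated cells over cells with none, so the distance between the classes with 0 and 2 was set by the choice. Cells with 1 gene had no part in it, but a level between such distant ends is easily reached. From 2 to 3 or more gate genes the order went on for 9 of the 12 highest and 9 of the 12 lowest. Pdcd1 had 2.06, 11.2, 20.4 and 88.5 CPM in cells with 0, 1, 2 and 3 or more gate genes. Cd74 had 10.2, 73.5, 127 and 259 CPM, and Slamf6, named for its list, had 34.6, 101, 206 and 295 CPM. Ikzf2 was an exception, with 7.69, 45.6, 145 and 95 CPM. Going down, Ccl5 had 2870, 2328, 882 and 734 CPM in these classes, and Plac8 had 194, 129, 38.2 and 36.0 CPM. For Ccl5, Ly6c2 and Plac8 the interval of the class with 1 gene did not overlap that of the class with 2, whereas those of 2 and of 3 or more overlapped for all 3 genes.

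**Figure D4:**
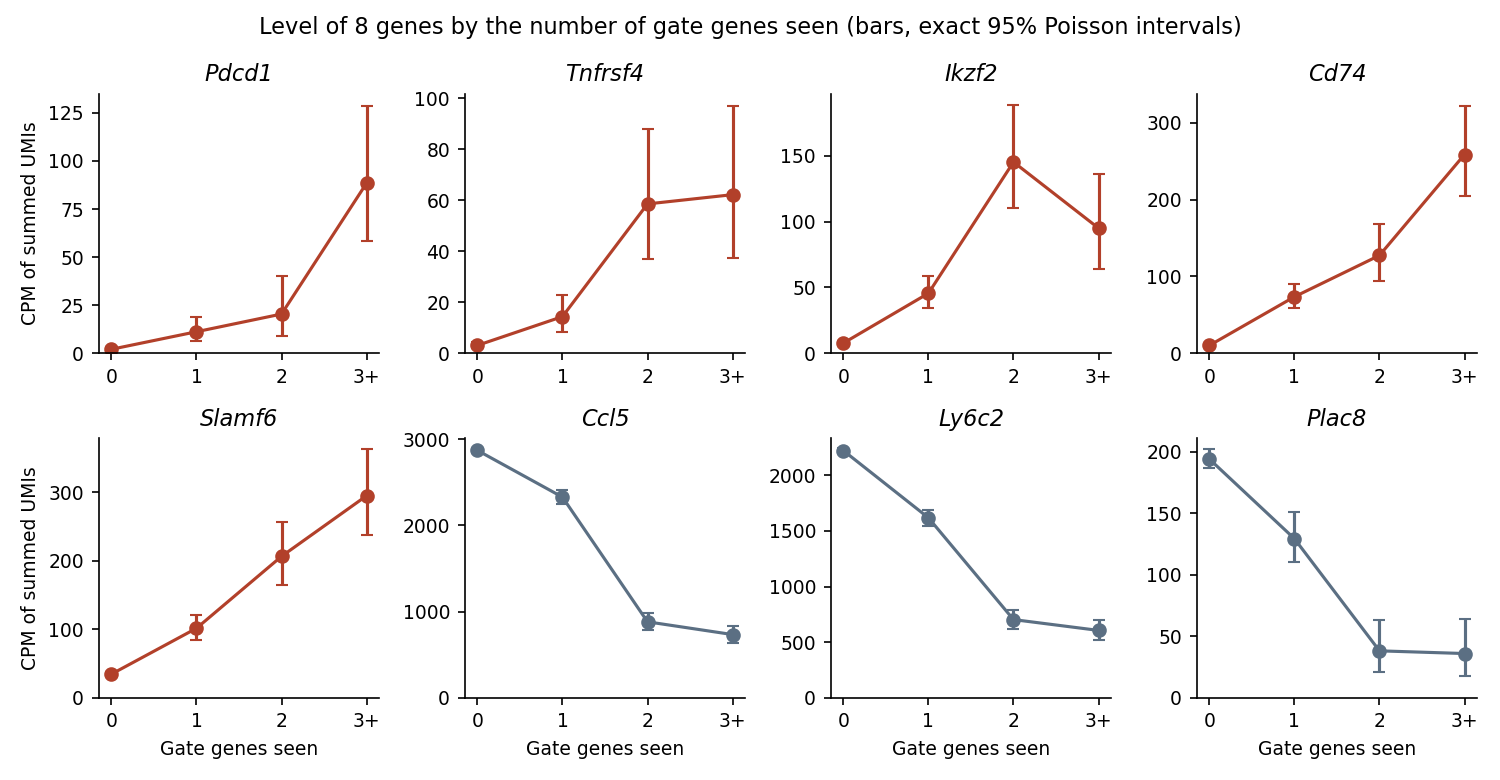
Level in CPM of summed UMIs (vertical axis, from 0) of 8 genes in cells with 0, 1, 2 and 3 or more gate genes (horizontal axis; 2814, 292, 97 and 63 cells). Bars are exact 95% Poisson intervals; Pdcd1 goes up to 88.5 CPM and Plac8 comes down to 36.0 CPM in the class with 3 or more, and Ikzf2 is highest in the class with 2. The 8 genes were picked from those with high or low ratios, so the distance between cells with 0 and gated cells is no separate result.

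Among genes with enough UMIs to compare, few differed 2-fold between gated cells along the 2 genes that give them their name. Between 122 gated cells with Izumo1r or Nrn1 and 38 gated cells with neither, 22 of 1901 genes (1.16%) were at least 2-fold higher and 7 (0.368%) lower, with a median log2 ratio of 0.00. Both classes had like depth, at medians of 3791.5 and 3818.5 UMIs. The 38 cells held 162736 UMIs in all, and genes with under 50 UMIs here, among them Gpm6b, Nrp1, Tiam1, Tnfrsf4 and Pdcd1, were not compared. Itm2a had 105 CPM in the 122 cells, against 18.4 CPM in the 38 cells (2.44, 0.88 to 4.83), Xcl1 151 against 49.2 CPM (1.60, 0.58 to 2.88) and Dapl1 413 against 190 CPM (1.11, 0.57 to 1.71). Cd7 (-1.49, -2.01 to -0.99) and Ifit3 (-1.49, -2.33 to -0.67) were lower in them. Cd74 (191 against 166 CPM) and Ptms (194 against 160 CPM) differed by less than their counting error.

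A second division, chosen after the values were seen, set the 41 gated cells with a Tnfrsf4 or Tnfrsf9 UMI against the 119 without. Pdcd1 had 132 CPM in the 41 cells, against 16.2 CPM in the 119 (2.95, 1.85 to 4.38), and the chemokine gene Xcl1 had 329 against 44.6 CPM (2.85, 2.17 to 3.65). Cd83 (1.63), the NF-κB gene Relb (1.56) and Ikzf2 (1.20) were also higher. Of the gate genes, Lag3 (1.35) and Nrn1, at 265 against 132 CPM (interval 0.46 to 1.55), were higher. Ctla4 was lower (-0.88, -1.58 to -0.23), and the intervals of Wnt10a (0.51), Cd200 (0.23) and Izumo1r (-0.27, -0.76 to 0.20) included equality. Every gated cell had at least 2 of the 6 gate genes by the rule. Their levels are thus tied together by the choice of cells, and no conclusion is drawn from the contrast among them. The interferon-induced genes Ifit1 (-2.42, -4.83 to -0.85) and Ifi209 (-1.81) and Dapl1 (-1.0, -1.51 to -0.53) were lower in the 41 cells, whereas Isg15, also induced by interferon, was at 132 against 156 CPM (-0.23, -0.93 to 0.41). Cd8a was at 1108 against 1078 CPM. Pdcd1 was seen in 22.0% of the 41 cells and 5.04% of the 119, and Ifit1 had 3 UMIs in the 41 cells. Only chosen genes were compared in this division, without the share over all genes, so it does not establish separate kinds of gated cells. Since both sides were read from the same UMIs, this is a description without a replicate.

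The T cell receptors of the gated cells came from another library than the gate. A receptor contig was found for 152 of the 160 gated cells (95%) and 2550 of the 2814 cells with none (90.6%). A clone, meaning identical TRB and TRA CDR3 nucleotides in a cell with 1 TRB and 1 or 2 TRA sequences, could be given to 100 gated cells and 1868 cells with none. The CDR3 is the part of each chain that is made during recombination and contacts the peptide. Of the 149 gated cells with a TRB sequence, no 2 shared it, and 122 distinct TRA sequences were found in 123 cells. The 100 gated cells with a clone thus belonged to 100 clones.

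Few gated cells and few cells with none were in expanded clones, and no gated cell was seen in a clone that reached the skin sample. Of 100 gated cells, 2 (2%, 0.243 to 7.04) were in a clone with at least 2 lymph node cells, against 97 of 1868 cells with none (5.19%, 4.23 to 6.30). A clone also found in skin held 0 of 100 gated cells, which allows a share of up to 3%, against 28 of 1868 cells with none (1.5%, 0.998 to 2.16). The 2 intervals of each pair overlap, so at this depth no difference was detectable. With the TRB sequence alone, 5.56% of gated cells and 10.3% of cells with none were in expanded clones. These shares were 1.52% and 1.94% with contigs of 3 or more UMIs, and 2% and 2.96% with each clone counted once.

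The sequences below show both expanded clones of gated cells and 4 TRB sequences of the gated cells with 5 gate genes, to show how different they are, and the TRA sequences that recurred among gated cells and among cells with none. All are CDR3 nucleotides from the deposited receptor tables, 5′ to 3′; TRB genes lie on chromosome 6 and TRA genes on chromosome 14, and capitals in TRB sequences mark the codons of positions 6 and 7, counted from the first cysteine as 1.
Clone 1 TRB: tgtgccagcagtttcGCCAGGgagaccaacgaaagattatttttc
Clone 1 TRA: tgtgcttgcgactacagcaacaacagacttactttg
Clone 2 TRB: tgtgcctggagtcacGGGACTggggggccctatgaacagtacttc
Clone 2 TRA: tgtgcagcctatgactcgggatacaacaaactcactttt
Cell 1 TRB: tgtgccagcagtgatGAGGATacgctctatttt
Cell 2 TRB: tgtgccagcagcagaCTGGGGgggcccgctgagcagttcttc
Cell 3 TRB: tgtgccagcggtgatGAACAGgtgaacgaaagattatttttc
Cell 4 TRB: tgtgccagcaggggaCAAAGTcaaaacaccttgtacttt
Recurrent TRA of gated cells: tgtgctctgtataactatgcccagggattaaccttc
Recurrent TRA of cells with none: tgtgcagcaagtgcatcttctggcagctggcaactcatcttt
Clone 1 used TRBV14 with TRBJ1-4 and TRAV12-2 with TRAJ7, and its other lymph node cell had 1 gate gene. Clone 2 used TRBV31 with TRBJ2-7 and TRAV7-5 with TRAJ11, and its other cell was not in the gene table. The 4 cells used TRBV13-1, TRBV10, TRBV13-2 and TRBV26. No clone held 2 gated cells, whereas the much larger number of cells with none made up 42 such pairs. The TRA sequence that recurred in gated cells, of TRAV12D-3 and TRAJ26, was in 2 of 123 gated cells with a TRA sequence (1.63%, 0.198 to 5.75), against 0 of 2143 cells with none (interval 0 to 0.172); these intervals do not overlap, but the sequence was picked for its recurrence. Only 1 TRB sequence was found with it, so whether its 2 gated cells are of 1 clone cannot be told. The other recurrent TRA sequence, of TRAV14D-2 and TRAJ22, was picked as the most frequent in cells with none, and was in 17 of these 2143 cells (0.793%, 0.463 to 1.27); it was in 0 of 123 gated cells, which allows up to 2.44%. Over cells of all classes it was found with 18 different TRB sequences.

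In CDR3 length the difference between gated cells and cells with none was smaller than the spread between cells, and for hydrophobic residues and the segments given here the counting intervals overlapped. TRB CDR3 regions had 14 ± 1.56 residues in gated cells and 13.8 ± 1.38 in cells with none (mean ± SD over 149 and 2494 cells). A hydrophobic residue at position 6 or 7 of the TRB CDR3, a feature associated with self-reactive receptors, was found in 26.2% (19.3 to 34.0) of gated cells and 29.6% (27.8 to 31.4) of cells with none. TRBV19 was the TRBV segment with most gated cells, at 8.72% (4.73 to 14.5) against 5.45% (4.59 to 6.42), and stood at 1.72% among cells with at least 3 gate genes. TRBV13-1 (8.05% against 6.26%), TRBV1 (7.38% against 5.09%), the joint assignment to TRBV12-2 and TRBV13-2 (7.38% against 9.22%) and TRBV12-1 (6.71% against 7.58%) followed. TRAJ22, named after its values were seen, was at 4.07% (1.33 to 9.23) of gated cells against 8.96% (7.78 to 10.2).

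**Figure D5:**
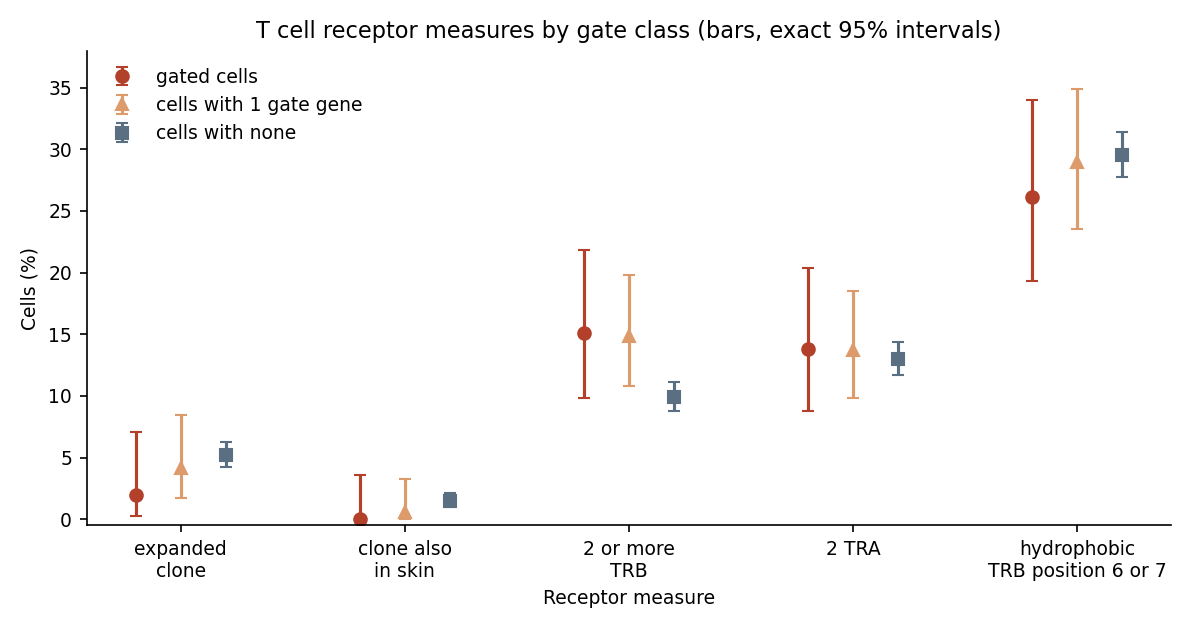
Share of cells (vertical axis, percent) with each receptor measure in gated cells (circles), cells with 1 gate gene (triangles) and cells with none (squares); the denominators are cells with a clone for the first 2 measures, cells with a contig for the next 2 and cells with a TRB sequence for the last. Bars are exact 95% binomial intervals; those of gated cells and cells with none overlap in all 5 measures, as for expanded clones at 2% and 5.19%.

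Barcodes with 2 or more TRB sequences, which can be 2 cells in 1 droplet, made up 15.1% (9.84 to 21.8) of gated cells with a contig, against 9.92% (8.79 to 11.1) of cells with none. In the 129 gated cells and 2297 comparison cells that remained without such barcodes and without barcodes lacking a contig, Pdcd1 stood at 3.87, Ikzf2 at 4.06, Cd74 at 4.22 and Tnfrsf4 at 3.93, and Plac8 and Gzmm at -2.66 and -3.70. Pdcd1 had stood at 4.06 with all cells. Of the 24 genes with the highest and lowest ratios, 20 had a ratio as large or larger without these barcodes, and Iigp1 (3.23), Cd9 (3.41), Kcna2 (3.35) and Gsto1 (-1.73) had a smaller one; all 24 remained past 2-fold.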

How the data were processed

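The authors deposited a table of UMI counts for each lymph node cell, as whole numbers with 4 lanes pooled; its tissue was read from its name. Bowtie, RSEM and mm10 are named, without roles, in the submitters' processing notes. The authors' deposited receptor tables list assembled contigs with UMI counts, 1 table per tissue. The members, gene lists and rules were chosen with earlier results of these data known. Skin RNA was not analysed here.

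Counts were summed per class of cells and scaled to CPM. The log2 ratio had 1 CPM added on both sides; its exact conditional 95% interval was computed from the counts without it. A gene was compared with at least 50 UMIs over both sides and called past 2-fold. Named genes are the 12 highest and 12 lowest ratios of genes detected in 10% or more of the higher side's cells that kept their direction with the gate read at 1500 UMIs, with comparison cells weighted by depth and with every cell weighted equally, without gate genes, receptor and immunoglobulin segments, mitochondrial and ribosomal protein genes; to these come 2 members from the top and 2 from the bottom of each list, the sort genes and, for receptors, the 5 TRBV segments with most gated cells. Genes outside this rule were named after their values were seen: list members past 2-fold or next to them. Shares carry exact Clopper-Pearson intervals, and CPM levels exact Poisson intervals. Limits for 0 counts use 3 counts. Thinning drew 1500 UMIs per cell without replacement and left out 9 gated cells and 147 cells with none. TRA and TRB contigs marked productive, full-length and high-confidence were kept (lymph node 7423 of 9927, skin 3603 of 4545). No doublet caller was run. Positions are from GENCODE M21 on mm10, which 9361 of 9428 gene names matched. Python 3.11.15, numpy 2.4.6, pandas 2.3.3, scipy 1.17.1 and matplotlib 3.10.9 were used, and simulated data were used to check the ratio and its interval.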

Additional observations from a re-analysis of the deposited data

How the results depend on the processing

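No paired analysis was possible because the lanes of the library were pooled before deposit and carry no columns of their own; for the same reason no lane could be left out in turn. The number of genes at least 2-fold higher and lower in gated cells, 626 and 323, became 969 and 655 with at least 3 gate genes (63 cells), 1151 and 785 with the gate read at 1500 UMIs (66 cells), 1669 and 1993 in the 21 cells with both Ctla4 and Lag3, 293 and 517 with median-of-ratios scaling, and 209 and 46 with 10 CPM added. The first 3 settings have fewer cells and thus fewer UMIs; the cause was not tested. Under the other 15 settings both counts stayed within 1.5 times. Of 116 genes named by the rule, 54 moved by more than their counting interval allows with the gate read at 1500 UMIs. Of the 68 of them past 2-fold, 61 remained past it and 0 changed direction under that setting, where Gsto1, Dgkz, Dusp5, Dapl1, Gzmk, Dusp1 and Rora did not remain. The 12 highest and 12 lowest genes were chosen to keep their direction with the gate read at 1500 UMIs, so for them a change was not possible. Under median-of-ratios scaling 61 of the 68 remained, where Dgkz, Dapl1, Itgb1, Dusp1, Cd8a, Rora and Krt10 did not. The share of gated cells, 4.90%, was 1.32%, 2.14% and 2.57% with the gate read at 1000, 1500 and 3000 UMIs. In the 21 cells with both Ctla4 and Lag3 the log2 ratios of Gzmk (-2.81), Tgfbr3 (-2.60) and Rora (-2.86) were reversed, at this small number of UMIs. The share of cells with none in expanded clones, 5.19%, was 10.3% by the TRB sequence alone, 1.94% with contigs of 3 or more UMIs and 2.96% with each clone counted once, and their share in clones also in skin, 1.5%, was 0.932% with contigs of 3 or more UMIs. The medians of inhibitory receptors, co-stimulatory receptors, virtual memory genes and Ly49 and NK receptors kept their sign under all 20 settings, the inhibitory one between 0.21 and 1.55 and the Ly49 one between -4.42 and -0.99. The 3 settings on Cd8a or Cd8b1, on Cd40lg or Ccr8 and on ribosomal protein genes in the totals were chosen after the data were seen. Depth limits the lower genes most, since a gene needs 4.30 CPM in gated cells for 3 counts.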
